A study of Homo sapiens with 10 samples.

Results

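The binding sites described here are the 895 MYCN peaks on chromosomes 1 to 22 and X in RPMI-8402 cells, taken from the MYCN list of set A with no further selection. They are 895 of 121294 peaks and regions in the 6 lists of the series. Of the 896 rows of the MYCN list, 1 lay outside these chromosomes and was left out. RPMI-8402 is a human cell line of T-cell acute lymphoblastic leukaemia (T-ALL). The labels name no genotype or treatment beyond the line, which was grown in RPMI medium with serum and antibiotics. Binding was mapped by CUT&RUN, in which an antibody brings a nuclease to its target in intact nuclei so that the DNA cut free beside it can be sequenced. The 10 libraries comprised MYCN with control IgG (set A), H3K4me3 with IgG (set B), MYC, H3K27ac and H3K4me1 with IgG (set C), and MYC with IgG (set D). The label of the set D MYC library names that same library as its control. Every target of a set had 1 library. No peak list of the set A IgG library was analysed here, and the MYCN peaks were listed by the submitters at a q below 0.01.

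MYCN and MYC are related basic helix-loop-helix leucine zipper proteins that bind E-box DNA as partners of MAX. MYCN is best known as the gene amplified in neuroblastoma, and MYC as a target of NOTCH1 in T-cell leukaemia. H3K4me3 covers the nucleosomes around active transcription starts and usually leaves the start itself, where factors bind, near the middle of the marked stretch. H3K4me1 without H3K4me3 marks enhancers, and H3K27ac marks active promoters and enhancers alike. Positions are on hg19. A gene annotation or sequence of that build was not used here, so sites are given by coordinate and distance, the cell type was not checked against marker genes, and E-boxes were not searched.

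With 1 library per target, and peaks that are not replicates, no test between conditions was possible. Shares carry exact 95% binomial intervals and medians carry 95% intervals from the binomial order of the values. Both cover counting over the listed peaks only, not the spread between cultures. The lists hold no score or read count, so depth and peak strength are unknown. The 6 lists came from different callers and settings, so a difference in width or number between lists was not read as a difference in binding.

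MYCN peaks were short and far apart. Their widths ran from 143 to 919 bp with a median of 222 bp (95% interval 213 to 233 bp, n = 895), and 61 peaks (6.82%, 5.25 to 8.67%) were wider than 500 bp. From the end of a MYCN peak to the start of the next on the same chromosome the median gap was 1280 kb, with quartiles of 268 and 3862 kb (n = 872 gaps). The shortest gap was 151 bp and the longest 42727 kb. The list thus named mostly isolated sites.

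Joining peaks separated by at most 2 kb gave 861 loci, of which 33 held more than 1 MYCN peak. These multi-peak loci held 67 peaks, or 7.49% of the list (5.85 to 9.41%). Most of these peaks were joined already at the shorter gap of 500 bp, which gave 27 loci with 54 peaks. The centres of neighbours in a locus lay a median of 536 bp apart (465 to 708 bp, n = 34 pairs), and no pair was closer than 338 bp. The quartiles of this distance were 463.75 and 723.88 bp. No gap in the list was shorter than 151 bp and no peak narrower than 143 bp. Whether closer sites were listed as a single peak is not known, and the part of this in the spacing was not tested. Peaks in multi-peak loci had a median width of 213 bp (201 to 271 bp) and the 828 other peaks one of 223 bp (214 to 234 bp), and these intervals overlap.

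Multi-peak loci mostly placed their MYCN peaks on the same H3K4me3 region. All MYCN peaks of the locus touched the same H3K4me3 region in 28 of 33 loci (84.8%, 68.1 to 94.9%), and the same MYC peak of set D in 28 of 33. The same region of MYC set C held all of them in 19 loci (57.6%, 39.2 to 74.5%). Peaks joined at a gap of at most 2 kb can meet the same region through their spacing alone, and the part of spacing in these shares was not tested. H3K27ac was met by 28 of the 33 loci (84.8%, 68.1 to 94.9%) and H3K4me1 by 6 (18.2%, 6.98 to 35.5%). Over all 895 MYCN peaks these shares were 80.6 and 16.8%, inside the intervals of the loci. A locus was counted over its whole span, with the stretch between its peaks, and a single peak over its own bases. MYC set D peaks with 2 MYCN peaks, 29 of the 850 with any, had a median width of 1053 bp (919 to 1177 bp), against 732 bp (704 to 756 bp) for the 821 with 1. A MYC peak must reach over both MYCN peaks to hold 2, which enters this difference. In the 19 set C regions with a pair of MYCN peaks, the stretch of highest MYC signal lay in a MYCN peak in 11, between both peaks in 7 and outside the pair in 1.

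The locus with the most MYCN peaks was chr20:50807660-50809145, with 3 peaks of 160, 213 and 158 bp over 1486 bp. It lay in 1 H3K4me3 region and met H3K27ac and 2 H3K4me1 regions. Its first peak was outside both MYC lists, 29 bp from the MYC peak of set D and 36 bp from the region of set C that met the locus. The longest loci with a pair of peaks were chr2:28613337-28615653, which touched 2 H3K4me3 regions and no H3K27ac, and chr19:27732002-27734118, which touched no H3K4me3. In the chromosome 2 locus the first peak itself lay 41 bp outside H3K4me3. Next were chr17:7338771-7340431, chr3:183851768-183853093 and chr7:75987531-75988705, each touching 1 H3K4me3 region and 1 MYC region of set C. The pair at chr19:27737490-27738659 again lacked H3K4me3. The last of the 10 longest were chr6:146055918-146057081, chr12:64797923-64799049 and chr5:76382319-76383288, each with 1 H3K4me3 region, 1 H3K27ac region and 1 MYC peak in either set. H3K4me3 was touched by 30 of the 33 loci (90.9%, 75.7 to 98.1%), and the 82.2% of all MYCN peaks lies inside this interval. The share of loci was again counted over their whole span.

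Within MYC peaks, most MYCN centres lay nearer to the middle than to the edge. The MYC lists of sets C and D may not be independent, since their headers give the same signal track. Of the 879 MYCN peaks that met a MYC peak of set D, 797 (90.7%, 88.6 to 92.5%) lay wholly inside it. The other 82 reached past its edge by a median of 34 bp (26 to 45 bp). The MYCN centre was a median of 95 bp from the middle of the MYC peak (86.5 to 103 bp, quartiles 41.5 and 180 bp), and within 100 bp of it in 461 peaks (52.4%, 49.1 to 55.8%). On a scale from 0 at the middle of the MYC peak to 1 at its edge, the median was 0.267 (0.250 to 0.284). MYCN centres were nearer to the middle than to the edge in 690 of 879 peaks (78.5%, 75.6 to 81.2%). MYCN was a median of 33.18% as wide as its MYC peak (31.5 to 34.57%), which limits how near to an edge the centre of a peak wholly inside can lie. Part of the nearness to the middle therefore follows from width, and how much was not tested. Neither side was preferred, with 431 of 877 (49.1%, 45.8 to 52.5%) at the lower coordinate.

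**Figure D1:**
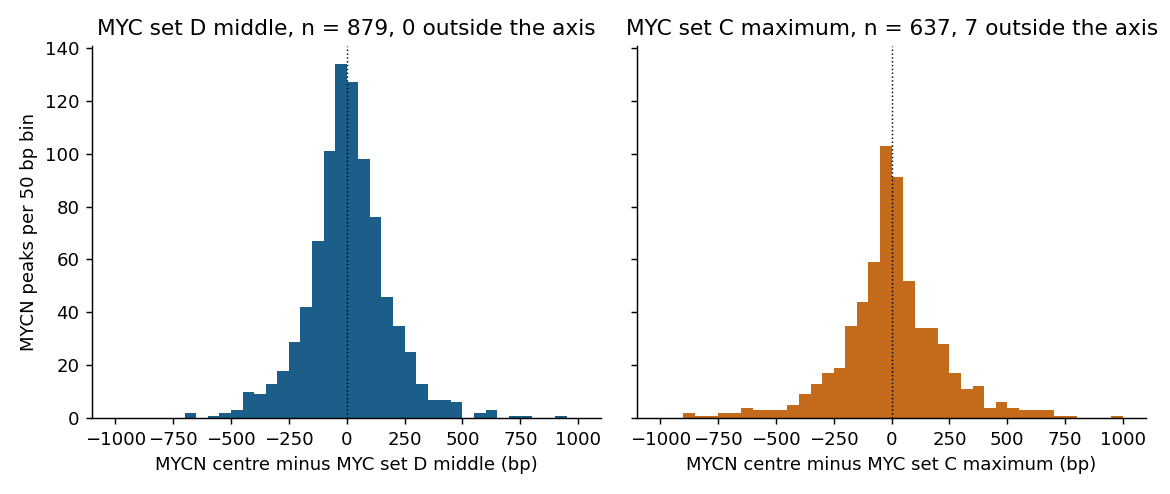
Histograms of the distance in bp from the MYCN peak centre to the middle of its MYC set D peak (left, 879 MYCN peaks) and to the stretch of highest signal in its MYC set C region (right, 637 MYCN peaks, 7 of them beyond the axis), counted in bins of 50 bp. Both are centred at 0, with median distances of 95 and 107.5 bp regardless of side.

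The set C list names within each region a short stretch, which was read here as the place of highest signal that its caller SEACR writes. MYCN lay closer to this MYC maximum than to the geometric middle of the region. The median distance from the MYCN centre was 107.5 bp to the maximum (96 to 121 bp, n = 637) and 153 bp to the middle (139 to 163 bp) in the same peaks. The maximum fell inside the MYCN peak in 370 of 637 cases (58.1%, 54.1 to 61.9%) and the middle in 292 (45.8%, 41.9 to 49.8%). In 368 of the 637 (57.8%, 53.8 to 61.6%) the maximum was the nearer of both points. The centres of MYC set D peaks lay a median of 120.5 bp from the maximum where they held MYCN (111 to 132 bp, n = 621). Where they did not, the distance was 106.5 bp (103 to 109.5 bp, n = 7484). The interval around the 107.5 bp of the MYCN centres overlaps both. MYCN peaks with H3K4me3 and those without held the maximum in 58.0% (53.7 to 62.1%, n = 559) and 59.0% (47.3 to 70.0%, n = 78).

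Inside H3K4me3 regions, MYCN lay well away from the edges. The MYCN centre was inside an H3K4me3 region in 719 of 895 peaks (80.3%, 77.6 to 82.9%), against 8717 of the 17168 MYC set D peaks without MYCN (50.8%). The nearer edge was a median of 593 bp from the MYCN centre (560 to 634.5 bp, n = 719), and 504.5 bp (492.5 to 513.5 bp) from the centres of MYC peaks without MYCN. Only 91 MYCN centres (12.7%, 10.3 to 15.3%) lay within 200 bp of the edge, against 18.0% (17.2 to 18.8%) of the MYC centres. An H3K4me3 edge was crossed by 63 of the 736 MYCN peaks that met H3K4me3 (8.56%, 6.64 to 10.8%), and in 17 of these the centre was outside.

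**Figure D2:**
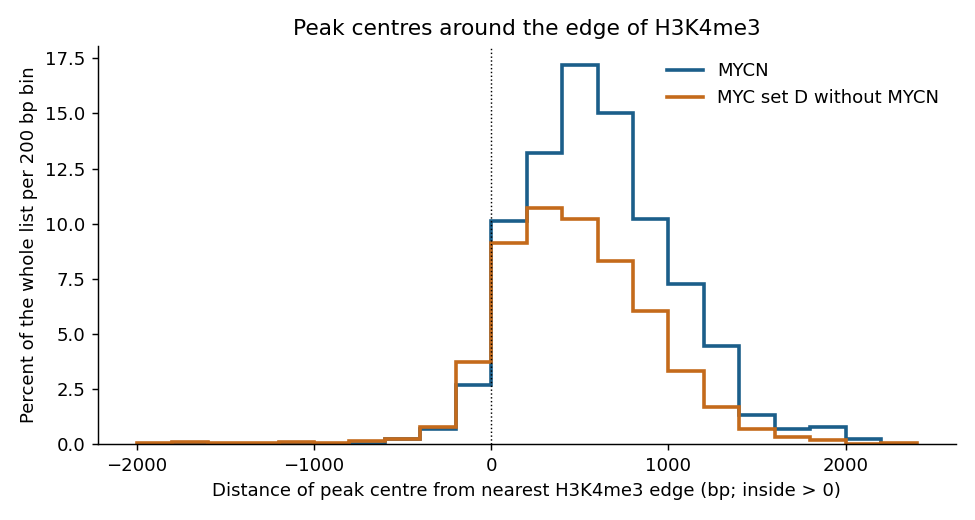
Distance in bp of peak centres from the nearest H3K4me3 edge, positive inside the region, as the percent of each whole list per 200 bp bin, for the 895 MYCN peaks and the 17168 MYC set D peaks without MYCN. MYCN peaked between 400 and 600 bp inside, with 17.2% of the list in that bin, and the MYC list between 200 and 400 bp, with 10.7%.

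The larger distance went with wider H3K4me3 regions. The region around a MYCN centre had a median width of 1971 bp (1888 to 2050 bp) and that around a MYC centre without MYCN 1684 bp (1658 to 1707 bp). Relative to the region, with 0 at the edge and 1 in the middle, the medians were 0.659 (0.630 to 0.681) for MYCN and 0.638 (0.630 to 0.645) for MYC, and their intervals overlap. Among the widest quartile of H3K4me3 regions, the edge was 886 bp away for MYCN (830 to 945 bp, n = 355) and 876 bp for MYC without MYCN (862 to 888 bp, n = 3139). In the next quartile these distances were 515 bp (482 to 545 bp) and 525 bp (514 to 535 bp). In the narrower pair of quartiles they were 307 bp (270 to 348 bp) and 276 bp (270 to 286 bp), and 130 bp (88.0 to 171 bp, n = 40) and 93.0 bp (87.5 to 98.0 bp). The intervals of MYCN and MYC overlapped in each of the 4 quartiles.

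H3K4me3 regions with MYCN were wider than the others. Over all regions 5.10% held MYCN, and the share went from 1.36% (47 of 3459) in the narrowest width quartile through 3.35% and 5.92% to 9.78% (8.81 to 10.8%) in the widest. A wide region can meet a peak more easily, which enters this gradient. Another H3K4me3 region lay within 1 kb of 13.3% of the regions with MYCN (10.9 to 16.0%, 94 of 707) and of 25.9% of those without (25.2 to 26.7%). In the narrowest width quartile these shares were 27.7% (15.6 to 42.6%, n = 47) and 51.0% (49.3 to 52.7%). In the next they were 19.8% (13.0 to 28.3%) and 24.6% (23.1 to 26.1%), then 8.78% (5.29 to 13.5%) and 11.7% (10.6 to 12.9%), and in the widest 11.8% (8.56 to 15.7%) and 14.8% (13.6 to 16.1%). The share was lower with MYCN in every quartile, and the intervals were apart only in the narrowest, with its 47 regions with MYCN. Whether a difference in isolation held at like width over all quartiles together was not tested. The next H3K4me3 region along the chromosome also held MYCN in 50 of 707 cases (7.07%, 5.29 to 9.22%), against 5.01% (4.64 to 5.39%) where the first held none.

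The share of H3K4me3 regions with MYCN ran from 2.07 to 7.80% over the chromosomes, and 19 of 23 intervals held the overall share. The chromosomes were compared after the values were seen, with no allowance for looking at 23 intervals. It was highest on chromosome 20, with 28 of 359 regions (7.80%, 5.25 to 11.1%), and on chromosome 3, with 55 of 761 (7.23%, 5.49 to 9.30%). It was lowest on chromosome X, with 10 of 484 (2.07%, 0.995 to 3.77%), followed by chromosome 18, with 6 of 202 (2.97%, 1.10 to 6.35%), and chromosome 19, with 34 of 1033 (3.29%, 2.29 to 4.57%). The intervals of chromosomes 3 and 20 lay above the share over all chromosomes, and those of chromosomes 19 and X below it. MYC set D had 163 peaks per 100 H3K4me3 regions on chromosome 20, 149 on chromosome 3, 119 on chromosome X and 99.3 on chromosome 19. Chromosome 21, with 164, had a MYCN share of 4.94% (2.16 to 9.50%). Per MYC peak these 4 chromosomes with MYCN shares off the line kept their side, with smaller differences that the intervals could not separate. Over all chromosomes 850 of 18018 MYC set D peaks held MYCN (4.72%, 4.41 to 5.04%), and the intervals of all 23 chromosomes held this share. It was at 6.32% on chromosome 20 (4.49 to 8.61%), 5.73% on chromosome 3 (4.45 to 7.24%), 4.00% on chromosome 19 (2.88 to 5.38%) and 3.11% on chromosome X (1.86 to 4.88%). The number of copies of each chromosome in these cells was not given, and its part in these shares was not tested.

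**Figure D3:**
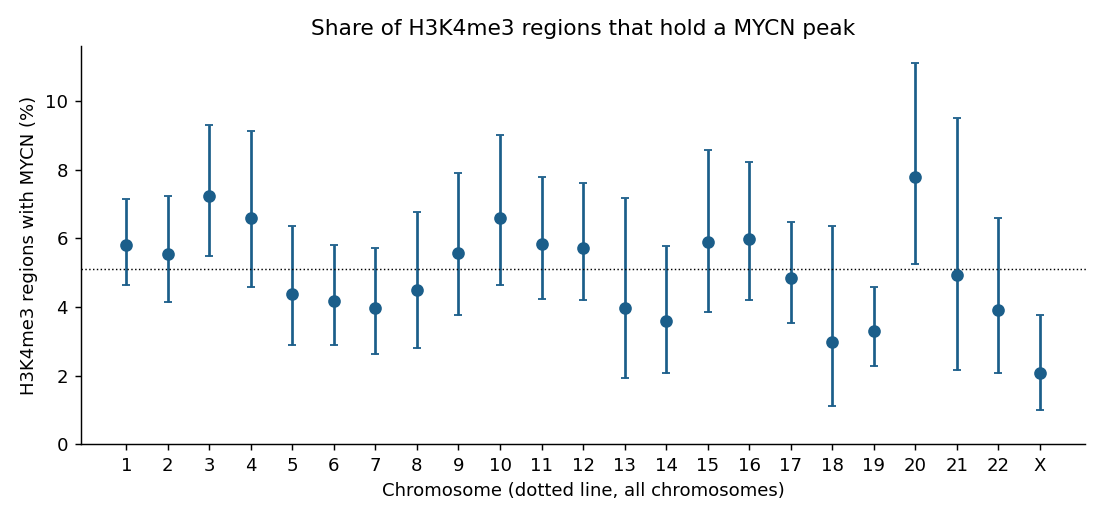
Percent of the H3K4me3 regions of each chromosome that held a MYCN peak, with exact 95% binomial intervals as bars, and the share over all chromosomes as a dotted line at 5.10%. Chromosomes 3 and 20 lay above the line and chromosomes 19 and X below it with their whole intervals.

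MYC peaks with MYCN met H3K4me3 more often than other MYC peaks at like width in both MYC lists, and the size of the difference depended on the list. Of the MYC set D peaks without MYCN, 54.6% met H3K4me3, and those with MYCN exceeded this by 29.1 percentage points. Compared within quartiles of MYC width and weighted by the MYCN-bearing peaks, the difference was 5.59 points (2.93 to 8.02, from the counting error of the share with MYCN alone). In the widest quartile, from 621 to 3268 bp, H3K4me3 was met by 90.0% of 603 MYC peaks with MYCN (87.4 to 92.3%) and 86.2% of 3902 without (85.1 to 87.3%). In the quartile from 422 to 620 bp the shares were 76.7% (69.8 to 82.7%, n = 176) and 65.6% (64.2 to 67.0%). The 2 narrower quartiles held only 55 and 16 MYC peaks with MYCN, and their intervals overlapped those of the peaks without. For H3K27ac the difference of 18.2 points became 6.67, and for H3K4me1 the difference of -7.59 points became 0.443. Both changed sign between quartiles. From the narrowest to the widest, they were -12.0, 4.71, 10.3 and 6.28 points for H3K27ac. For H3K4me1 they were 8.38, 13.2, 0.181 and -0.855 points. The intervals overlapped for both marks in the 2 narrower quartiles. In MYC set C the difference in H3K4me3 was 24.9 points over all regions and 23.8 points within quartiles of width. Holding width thus reduced the difference in set D and hardly changed it in set C, whose regions came from another caller.

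**Figure D4:**
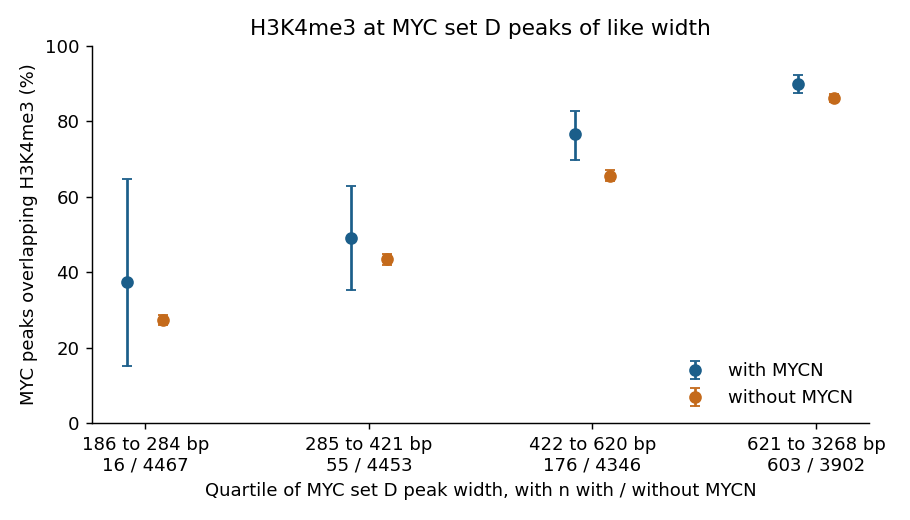
Percent of MYC set D peaks that met H3K4me3 in each quartile of MYC peak width, for peaks with and without MYCN, with exact 95% binomial intervals. Both series rose with width, from 37.5 and 27.4% in the narrowest quartile to 90.0 and 86.2% in the widest.

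The order of the marks by how near MYCN lay to their middle turned with the scale. In bp the median distance was 306.25 for H3K4me3 (278 to 339 bp), 183.5 for H3K27ac (168 to 199 bp) and 107.75 for H3K4me1 (89.5 to 129 bp). On the scale from 0 at the middle to 1 at the edge, the median was 0.351 for H3K4me3 (0.325 to 0.379), 0.465 for H3K27ac (0.433 to 0.492) and 0.561 for H3K4me1 (0.441 to 0.634). Of the 721 MYCN peaks that met H3K27ac, 487 (67.5%, 64.0 to 71.0%) lay wholly inside its region, compared with 673 of 736 (91.4%, 89.2 to 93.4%) for H3K4me3. The lists' median widths were 1341 bp for H3K4me3, 551 bp for H3K27ac and 324 bp for H3K4me1, in the order of the distances in bp. Among the MYCN peaks in H3K4me3, 139 (18.9%, 16.1 to 21.9%) met no H3K27ac. For 43 of these 139 (30.9%, 23.4 to 39.3%) an H3K27ac region lay within 200 bp, and for 75 (54.0%, 45.3 to 62.4%) the surrounding H3K4me3 region itself touched H3K27ac. Of the 150 MYCN peaks that met H3K4me1, 62 (41.3%, 33.4 to 49.7%) lay wholly inside its region. H3K4me1 lay within 1 kb outside an edge of 16.4% of the H3K4me3 regions with MYCN (13.8 to 19.3%, 116 of 707) and of 19.8% of those without.

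MYCN peaks without H3K4me3 numbered 159 (17.8% of the list, 15.3 to 20.4%) and met H3K4me1 far more often than the others. H3K4me1 was met by 74 of them (46.5%, 38.6 to 54.6%), against 76 of the 736 with H3K4me3 (10.3%, 8.22 to 12.8%). H3K27ac was met by about the same share of either class, with 124 of 159 (78.0%, 70.7 to 84.2%) and 597 of 736 (81.1%, 78.1 to 83.9%). Both marks together were found at 61 (38.4%, 30.8 to 46.4%), H3K27ac alone at 63, H3K4me1 alone at 13 and neither at 22 (13.8%, 8.88 to 20.2%). MYC set D was met by 152 of the 159 (95.6%, 91.1 to 98.2%). MYC set C was met by only 78 (49.1%, 41.1 to 57.1%), compared with 559 of the 736 with H3K4me3 (76.0%, 72.7 to 79.0%). Their median width of 206 bp (190 to 229 bp) was close to the 225.5 bp (215 to 238 bp) of the others.

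These 159 sites were set beside the 7796 MYC set D peaks that had neither MYCN nor H3K4me3. The MYCN sites met H3K4me1 about as often, and H3K27ac and MYC set C more often. Of that background 47.3% met H3K4me1 (46.2 to 48.4%) and 65.9% met H3K27ac (64.8 to 66.9%). MYC set C was missing from 73.0% of it (72.0 to 74.0%) and from 81 of the 159 MYCN peaks (50.9%, 42.9 to 58.9%). Among the 9372 MYC set D peaks with H3K4me3 and without MYCN, 12.9% met H3K4me1 (12.2 to 13.6%) and 73.1% met H3K27ac (72.2 to 74.0%). MYC set C was missing from 42.5% of these (41.5 to 43.5%) and from 177 of the 736 MYCN peaks with H3K4me3 (24.0%, 21.0 to 27.3%). For H3K27ac and MYC set C, the intervals of the MYCN peaks and of the MYC background did not overlap in either class. Peak width was not held constant in these comparisons. The MYCN peaks had median widths of 206 bp without H3K4me3 and 225.5 bp with it, and the MYC peaks 313 and 522.5 bp. Among MYC set D peaks, those with MYCN were the wider ones. The width classes below took set D peaks with and without H3K4me3 together. For MYC set C, the difference between set D peaks with and without MYCN was 29.4 points over all widths and 8.26 points within width quartiles. In the narrowest quartile it was -1.94 points and in the next 3.44 points, both with overlapping intervals, and in the third 11.7 points. Within the widest MYC quartile, MYC set C was met by 80.4% of the set D peaks with MYCN (77.0 to 83.5%) and 72.5% of those without (71.0 to 73.9%).

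Most of these 159 peaks lay over 10 kb from the nearest H3K4me3 region, and a small share lay within 500 bp. A region lay within 200 bp of 12 peaks (7.55%, 3.96 to 12.8%), against 1.58% of the MYC background, and within 500 bp of 15. Between 500 bp and 2 kb there was 1 peak. Within 10 kb there were 32 (20.1%, 14.2 to 27.2%), against 13.1% of the MYC background. The median distance was 61.9 kb (41.1 to 77.1 kb), next to 62.0 kb (58.9 to 64.4 kb) for the MYC background. A gap of at most 2 kb between neighbouring H3K4me3 regions held 2 of the 159 (1.26%, 0.153 to 4.47%) and 8 of the 7796 MYC peaks (0.103%, 0.0443 to 0.202%). The MYC peaks of this background were wider, with a median of 313 bp (309 to 317 bp), and the part of width in the share within 200 bp was not tested. The 15 peaks within 500 bp met H3K4me1 in 1 case (6.67%, 0.169 to 31.9%), whereas the 144 farther ones met it in 73 (50.7%, 42.2 to 59.1%).

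**Figure D5:**
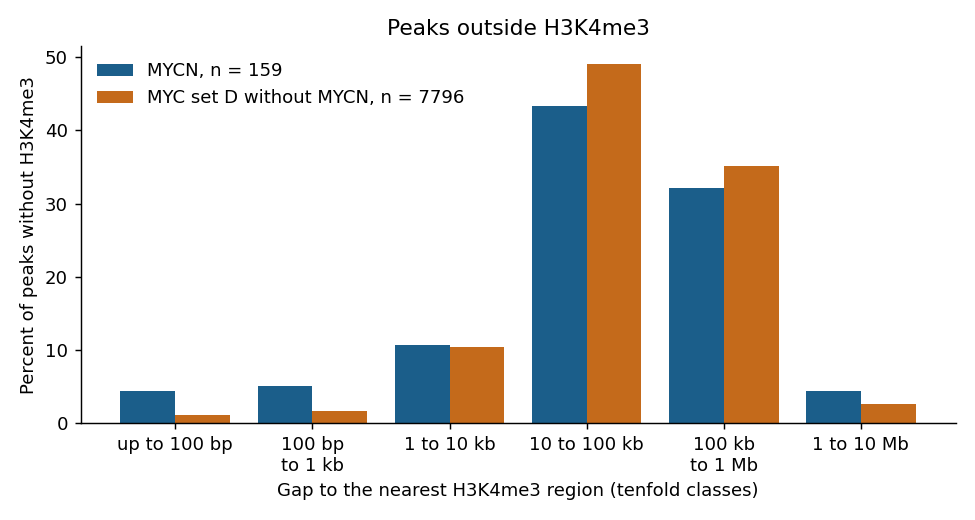
Percent of the 159 MYCN peaks and of the 7796 MYC set D peaks without MYCN that lay outside H3K4me3, by class of gap to the nearest H3K4me3 region. The classes up to 1 kb held 4.40 and 5.03% of the MYCN peaks and 1.10 and 1.60% of the MYC peaks, and the most frequent class of both lists was 10 to 100 kb.

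The widest MYCN peak without H3K4me3 was chr2:740163-740699 (537 bp), 61.9 kb from the nearest H3K4me3 region. With chr19:5090833-5091340 (508 bp, 121 kb away) and chr11:75479291-75479744 (454 bp, 45.6 kb away) it met H3K27ac, H3K4me1 and MYC of both sets. The peak chr20:62902149-62902642 (494 bp) lay 251 bp outside H3K4me3, with H3K27ac and no H3K4me1. Likewise chr5:156698763-156699251 (489 bp) and chr5:148619933-148620363 (431 bp) met H3K27ac without H3K4me1, and MYC of both sets. The peaks chr17:36571701-36572125 (425 bp), chr3:13598294-13598711 (418 bp) and chr10:42400228-42400687 (460 bp) met both marks and MYC of set D alone. The remaining one of the 10, chr15:81558403-81558866 (464 bp), met no mark and MYC of set D alone.

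The MYCN peaks most remote from H3K4me3 included groups of peaks beside centromeres. The farthest was chr2:80220353-80220519, 4282 kb away, with H3K27ac and MYC of both sets. It was followed by chr11:51580451-51580656 at 3708 kb, and by chr2:92325106-92325265, chr2:92318932-92319130 and chr2:92316219-92316460 at 3324 to 3333 kb, all with MYC of set D and none with MYC of set C. The positions near chr2:92316219 and chr11:51580451 adjoin the centromeres of hg19, as do both chromosome 19 loci named above. Other MYCN peaks were not checked against centromeres. Among them was the pair chr10:42391582-42391751 and chr10:42400228-42400687, at 655 and 646 kb from H3K4me3. In all, 18 MYCN peaks lay over 500 kb from H3K4me3. Of these, 9 had another MYCN peak within 10 kb (95% interval 26.0 to 74.0%), against 88 of all 895 (9.83%, 7.96 to 12.0%). MYC set D was met by 16 of the 18 and MYC set C by 5 (27.8%, 9.69 to 53.5%), H3K27ac by 14 and H3K4me1 by 8. The 4 peaks of chromosome 19 between 27732002 and 27738659 met H3K27ac in each case, MYC of set D in each case and H3K4me3 in none. The names in the H3K4me3 list carry the words dedup and uniq, which the MYCN names do not. Whether reads from repeats were treated alike in both lists is not given in the sources used here, and its part in these peaks was not tested.

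The MYCN peaks outside both MYC lists were 13 short peaks with a median width of 163 bp (157 to 217 bp), and 5 of them stood within 200 bp of a MYC peak. All 5 were in H3K4me3. They were chr20:50807660-50807819, at 29 bp from MYC of set D, chr1:167487169-167487326 at 59 bp, chr1:27692851-27693013 at 105 bp (74 bp from set C), chr5:169064681-169064959 at 109 bp and chr5:54522521-54522737 at 189 bp. A further 3 were in H3K4me3 at greater distances, namely chr16:28505473-28505633 at 1809 bp from MYC of set D, chr19:47287960-47288315 at 3489 bp and chr16:3109136-3109343 at 6019 bp. The other 5 had no H3K4me3. Of these, chr14:105742640-105742836 met H3K27ac with H3K4me1, and chr1:204958449-204958604 and chr8:138795870-138796026 met H3K4me1 alone. Neither chr6:157800952-157801125, 52 bp outside an H3K4me3 region, nor chr7:65020078-65020227 met any of the 3 marks.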

How the data were processed

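The deposited files give peak positions in bases on hg19, a build named in the submitters' processing notes together with MACS2 and SEACR, versions not given in the sources used here. Each list has 4 columns, for chromosome, start, end and a name, and peak strength is not among them. Per the file headers, the MYCN list is cutruntools output for all fragments at a q below 0.01, H3K4me3 and MYC of set D come from MACS2 and MYC of set C from SEACR. For MYC, sets C and D share 1 signal track address in their headers, and whether they are independent libraries is not settled.

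Lists were restricted to chromosomes 1 to 22 and X. Overlap means at least 1 shared bp. A MYCN peak that met several regions was placed in the one it shared most bases with, and centres are midpoints. The fourth column of MYC set C was read as the stretch of highest signal. It lay inside the region in 9482 of 9498 cases and was cut off in 16. Overlap code was checked on simulated peaks and against bedtools 2.31.1. Intervals came from scipy 1.17.1 and figures from matplotlib 3.10.9, run with numpy 2.4.6 under Python 3.11.15.

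The members, comparisons and lists were chosen with earlier results of these data known. Named regions are the multi-peak loci with the most peaks (10, ties by span), the 10 widest MYCN peaks without H3K4me3, the 5 farthest from it and those outside both MYC lists. The set C maximum, the H3K4me3 neighbours and width quartiles, the chromosomes and the peaks over 500 kb from H3K4me3 were added after the values were seen. Alternatives were other overlap rules, joining gaps, H3K4me3 joined within 500 bp, the other MYC list and MYCN peaks at or above their median width. The planned motif search and marker check need hg19 sequence and annotation and were not run.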

Additional observations from a re-analysis of the deposited data

How the results depend on the processing

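Values were called moved when they left the 95% interval of the reported value. MYCN peaks at or above their median width gave 99.3% in MYC of set D (98.2% for all), 74.8% in MYC of set C (71.2%), 3.12% in multi-peak loci (7.49%) and a median relative position in H3K4me3 of 0.683 (0.659). Dropping the narrower MYCN peaks removes members of a locus, which enters the lower share in loci, and how much was not tested. A joining gap of 10 kb gave 9.83% of peaks in multi-peak loci. With MYC set C the median centre distance was 153 bp (95 bp in set D) and the H3K4me3 difference within width quartiles 23.8 points (5.59 in set D), and the cause was not tested. Deciles of set D width gave 4.50 points. Of the 39 alternatives over 12 results, 32 stayed inside the interval and 7 moved. Most of these results are shares, distances or positions with no direction to turn. The H3K4me3 difference within width classes stayed positive, at 4.50 and 23.8 points. Leaving out the 18 MYCN peaks over 500 kb from H3K4me3, chosen after seeing the data, changed the share in loci to 7.18% and, among peaks without H3K4me3, gave 78.0% with H3K27ac, 46.8% with H3K4me1 and 51.8% with MYC set C. No paired analysis was possible because each target has 1 library per set and the labels number no replicates. Depth is unknown, so an absent MYCN peak does not show absent binding.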

Other observations

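On a scale of 100 kb, 94 clusters held 207 of the 895 MYCN peaks (23.1%), and 3 clusters held 4 peaks each. The cluster chr2:28582312-28615653 spanned 33.3 kb with 1 of its 4 peaks in H3K4me3 and 2 in H3K27ac. The cluster chr12:93757781-93861505 spanned 104 kb with 3 peaks in H3K4me3 and all 4 in H3K27ac. The cluster chr19:27732002-27738659 spanned 6.66 kb with no peak in H3K4me3 and 4 in H3K27ac. These clusters were named after their values were seen.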
